A study of Mus musculus with 27 samples.

Results

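Type 1 conventional dendritic cells (cDC1s) sorted from the inflamed colon were compared between WT and *Mbd2*-/- mice on 5 arrays, 2 WT and 3 *Mbd2*-/-, of the 27 arrays of the series. They were chosen by label, as the arrays of cell type CD11bnegDC and tissue colon, and every probe with a detection p under 0.05 on at least 2 of the 5 arrays was tested, which left 17838 of 45281 probes and 13051 of the array's gene symbols. Both groups were C57BL/6 mice, age and sex matched at 8 to 22 weeks, that drank 2% dextran sodium sulfate (DSS), which injures the colon epithelium, for 6 days. The WT mice were littermates, co-housed wherever possible, and the *Mbd2*-/- mice lacked the gene in every cell, so that the cDC1s came from a colon whose epithelium and other leukocytes were also mutant. Lamina propria cells were sorted as CD45+ Ly6G- Siglec-F- CD11b- CD11c+ CD103+ and pooled, from 1 to 10 mice per array by the methods and 1 to 5 by the deposited record. No cDC1s from untreated mice were analysed here. The series also holds 10 macrophage and 10 monocyte arrays of the same tissue and treatment, which share 1 model with the cDC1 arrays, and 2 arrays of splenic T cells that were not used. Arrays are named by the number in their label, 23 and 26 for WT and 27, 28 and 30 for *Mbd2*-/-, and values are normalized intensities on the log2 scale unless a sentence says otherwise.

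*Mbd2* encodes a protein that binds methylated CpG and brings the NuRD histone deacetylase complex to it, which links DNA methylation to closed chromatin. cDC1s depend on the transcription factors Irf8 and Batf3, take up dying cells, present their antigens to CD8 T cells, and are marked by Xcr1 and Clec9a. In the gut they carry the integrin CD103, encoded by *Itgae*, which binds E-cadherin on the epithelium and was itself part of the sort gate.

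The label held against markers of cDC1s, of which 13 of 19 were brighter on all 5 cDC1 arrays than on any of the 20 macrophage and monocyte arrays. *Clec9a* lay between 10.27 and 11.14 on the cDC1 arrays and between 4.75 and 6.83 on the others. *Itgam*, which encodes CD11b, was detected on none of the 5, and 13 of 15 macrophage and monocyte markers were dimmer on all of them than on any other array. The exceptions among the cDC1 markers included *Flt3* and *Cd8a*, detected on 2 and 1 of the 5 arrays. *Id2*, *Ifi205* and *Itgax* were detected on all 5 but overlapped the other cells. *Itgax*, which encodes CD11c of the sort gate, lay between 7.02 and 8.73, beside 7.70 to 8.48 in macrophages. Of 17 markers of T, NK and innate lymphoid cells, 3 were also brighter on all 5 arrays than on any of the 20 others. Arrays of one genotype were not tight. The SD of the differences over all tested probes was 0.633 between the WT arrays and 0.522 to 0.588 between *Mbd2*-/- arrays, but only 0.491 between WT array 26 and *Mbd2*-/- array 27. Mean raw intensity was 291.9 and 264.6 on the WT arrays and 227.6, 171.5 and 192.8 on the *Mbd2*-/- arrays, and the housekeeping controls averaged 7315 and 6606 against 6420, 4362 and 5828. All 3 *Mbd2*-/- arrays were thus dimmer before normalization, and the part of this in the results was not tested. The single *Mbd2* probe was detected on no array, with detection p-values from 0.118 to 0.808, and gave no check of the genotype.

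In *Mbd2*-/- cDC1s, 132 genes rose and 183 fell by at least 1 on the log2 scale with an adjusted p under 0.05 (limma), which is 1.01% and 1.40% of the genes tested. Without the fold limit 572 genes (4.38%) were higher and 520 (3.98%) lower. The WT and *Mbd2*-/- arrays did not overlap for 325 of the 345 called probes, where 31.8% of all tested probes did not overlap. The split of higher and lower turned on the scaling: when arrays were scaled to 1 median instead of 1 distribution, 8 genes were higher and 508 lower, and the median change over all tested probes moved from 0.03 to -0.37. The counts also turned on single arrays. They were 36 higher and 108 lower without array 23, 398 and 490 without array 26, 268 and 317 without array 27, and 79 and 99 without array 30. A set of 60 called genes, 27 higher and 33 lower, passed the adjusted p in each of the 5 fits that left out 1 array, and the genes described first below are the 12 per direction with the largest change among those of the 60 with a RefSeq match by accession and no overlap between genotypes, 18 higher and 19 lower. Genes of the 60 with no such match, some with larger changes, are not ranked here. With median scaling 7 of the 12 that rose missed the adjusted p, and none of the 12 that fell. No gene was called when limma was fitted to the 5 cDC1 arrays alone, where 1965 genes had an unadjusted p under 0.05.

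*Ubd* had the largest change of the 18 higher genes with a RefSeq match. It encodes FAT10, a ubiquitin-like modifier that interferon and TNF induce and that sends proteins to the proteasome. Its level was 4.40 and 4.98 on the WT arrays and 6.64, 7.78 and 6.83 on the *Mbd2*-/- arrays. The lowest *Mbd2*-/- array was above both WT arrays, which the rule for naming the gene required. Just 1 of the WT arrays detected the probe at all. The difference was 2.39 ± 0.36 (SE, adjusted p = 0.00069).

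*Pacsin1*, an adaptor that bends membranes in endocytosis, was at 5.57 and 6.56 in WT and 8.48, 7.62 and 8.76 in *Mbd2*-/- cDC1s, a difference of 2.22 ± 0.32 (adjusted p = 0.000531). A second of its 4 tested probes was also called, with a difference of 1.68 ± 0.27, and the other 2, at 0.16 ± 0.14 and 0.73 ± 0.23, did not pass. *Cox6a2*, the muscle form of a cytochrome c oxidase subunit, was at 4.49 and 4.69 in WT and 7.08, 5.78 and 7.32 in *Mbd2*-/- cDC1s, a difference of 2.14 ± 0.31. Array 28 was the lowest of the 3 *Mbd2*-/- arrays for both genes. Both genes are also known from plasmacytoid dendritic cells, so the plasmacytoid marker *Siglech* was looked at after these values were seen. Its brighter probe was at 6.11 and 5.75 in WT and 6.21, 5.26 and 6.01 in *Mbd2*-/- cDC1s, so that the genotypes overlapped, and the part of such cells in the result was not tested.

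*Blvrb*, a flavin reductase of haem breakdown, had the smallest adjusted p of the 12 genes with the largest rise. It was at 8.44 and 8.25 in WT and 9.54, 9.81 and 9.71 in *Mbd2*-/- cDC1s, a difference of 1.34 ± 0.16 (adjusted p = 3.91e-05), and its second probe rose by 1.27 ± 0.20. *Avil*, which encodes the actin regulator advillin, was at 4.65 and 4.56 in WT and 5.67, 6.08 and 6.11 in *Mbd2*-/- cDC1s. *Itga2b*, the integrin chain CD41, was at 4.62 and 5.23 against 6.23, 6.03 and 6.56. The genotypes of both genes were apart, as the rule required, and 1 of the WT arrays did not detect *Avil*. The remaining genes among the 12 with the largest rise were *Camk2b* (1.64 ± 0.31), a calcium and calmodulin dependent kinase, *Klrh1* (1.46 ± 0.27), an NK receptor-like lectin, *Snapin* (1.46 ± 0.23), a SNARE-associated protein, *Kremen2* (1.41 ± 0.26), a receptor of the Wnt inhibitor Dkk1, *Sgsm3* (1.35 ± 0.23), and *Otof* (1.27 ± 0.21), which encodes otoferlin. For *Snapin*, the other and brighter probe did not rise, with 7.62 and 7.69 in WT against 7.79, 7.55 and 7.34.

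The 12 genes that fell most by the same rule included *Kmt2c* and *Ezh2*. Called genes outside the rule, such as *Pmaip1* and *Klrk1*, had larger falls that did not pass every leave-one-out fit. *Kmt2c* encodes a histone H3 lysine 4 methyltransferase of enhancers. It was at 8.51 and 8.80 in WT and 7.28, 6.95 and 6.96 in *Mbd2*-/- cDC1s, and fell by 1.59 on the log2 scale (SE 0.16, adjusted p = 6.21e-06). Its groups did not overlap, which the rule required, and leaving out any 1 array kept the change between -1.74 and -1.45. *Ezh2*, the Polycomb methyltransferase of H3 lysine 27, was at 7.69 and 6.20 in WT and 4.92, 4.99 and 4.26 in *Mbd2*-/- cDC1s, a difference of -2.22 ± 0.34 (adjusted p = 0.000827). The WT arrays differed widely here, the change ran from -2.97 to -1.48 as arrays were left out, and the second *Ezh2* probe, at -0.54 ± 0.30, did not pass.

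*Tnrc6a*, a scaffold of microRNA silencing, was at 7.94 and 7.82 in WT and 6.78, 5.92 and 6.09 in *Mbd2*-/- cDC1s, a difference of -1.62 ± 0.26, and a second of its probes was also called (-1.03 ± 0.17). *Ep300*, the histone acetyltransferase p300, was at 7.47 and 7.71 against 6.92, 6.09 and 5.91. *Rev3l*, the catalytic subunit of DNA polymerase zeta, was at 5.95 and 6.10 against 4.89, 4.35 and 4.76. In these 3 genes no *Mbd2*-/- array reached either WT array, which the rule for naming them required. *Hhex*, a homeobox factor, was at 10.53 and 11.33 in WT and 10.17, 9.36 and 9.66 in *Mbd2*-/- cDC1s. *Map3k8*, the kinase Tpl2 that carries Toll-like receptor signals to ERK, fell by 1.35 (SE 0.21), and *Cysltr1*, the receptor of cysteinyl leukotrienes, by 1.22 (SE 0.22). *Alcam*, an adhesion molecule that binds CD6 on T cells, was at 8.03 and 7.76 in WT and 6.52, 6.25 and 6.63 in *Mbd2*-/- cDC1s. The zinc finger genes *Zfp318* (-1.30 ± 0.23) and *Zmym5* (-1.20 ± 0.22) and *Nab1* completed the 12.

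**Figure D1:**
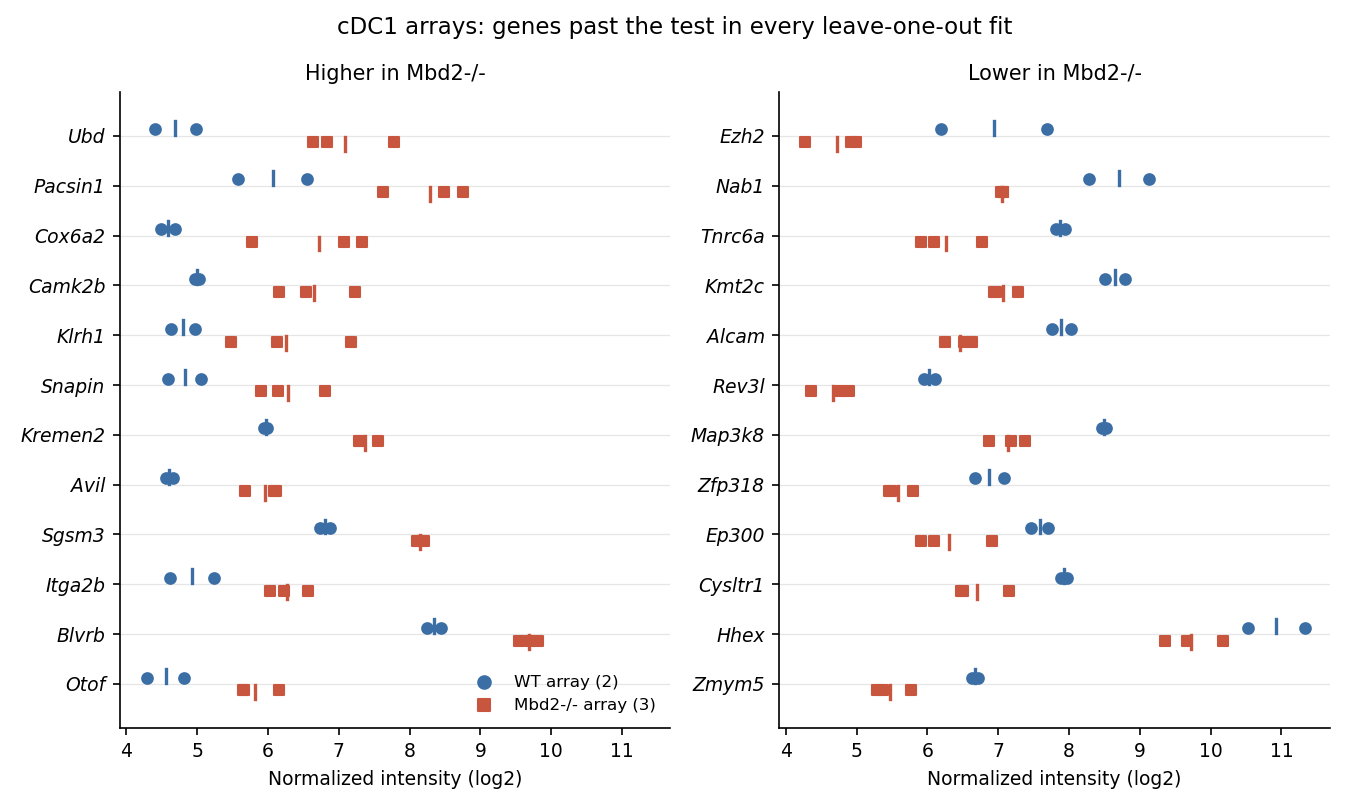
Normalized intensity (log2, horizontal axis) of the 12 genes with the largest rise and the 12 with the largest fall among genes with a RefSeq match that passed limma's adjusted p in all 5 leave-one-out fits, 1 circle for each of the 2 WT arrays and 1 square for each of the 3 *Mbd2*-/- arrays, with vertical ticks at the group means. The genotypes do not overlap for any of the 24, which the rule required, and *Ezh2* and *Pacsin1* show wide gaps between the WT arrays.

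The sequence before the start is shown for 3 genes that rose and 3 that fell, because Mbd2 binds CpG when it is methylated. The 6 were picked by hand as examples and do not stand for the called genes. The lines give the 250 bases upstream of the start of each gene from RefSeq (GRCm38.p6), on the gene's strand, with each CpG in capitals. No methylation was measured, and a CpG in the sequence is not a methylated one.
*Ubd*, chr17:37193642-37193891, plus strand: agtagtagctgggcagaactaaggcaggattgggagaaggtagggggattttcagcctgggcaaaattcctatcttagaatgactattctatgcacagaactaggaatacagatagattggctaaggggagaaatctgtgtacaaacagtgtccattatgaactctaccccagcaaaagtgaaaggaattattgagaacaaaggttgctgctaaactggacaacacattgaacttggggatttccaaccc
*Avil*, chr10:127000459-127000708, plus strand: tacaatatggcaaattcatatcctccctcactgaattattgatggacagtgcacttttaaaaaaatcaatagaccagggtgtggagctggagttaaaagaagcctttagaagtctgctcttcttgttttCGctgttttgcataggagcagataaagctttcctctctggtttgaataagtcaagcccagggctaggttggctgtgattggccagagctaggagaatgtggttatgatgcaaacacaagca
*Ets2*, chr16:95702157-95702406, plus strand: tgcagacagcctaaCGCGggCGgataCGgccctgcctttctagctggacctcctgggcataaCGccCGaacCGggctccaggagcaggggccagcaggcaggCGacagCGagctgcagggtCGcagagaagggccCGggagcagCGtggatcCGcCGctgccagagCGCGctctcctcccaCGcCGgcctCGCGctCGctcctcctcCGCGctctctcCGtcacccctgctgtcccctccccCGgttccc
*Nab1*, chr1:52500449-52500698, minus strand: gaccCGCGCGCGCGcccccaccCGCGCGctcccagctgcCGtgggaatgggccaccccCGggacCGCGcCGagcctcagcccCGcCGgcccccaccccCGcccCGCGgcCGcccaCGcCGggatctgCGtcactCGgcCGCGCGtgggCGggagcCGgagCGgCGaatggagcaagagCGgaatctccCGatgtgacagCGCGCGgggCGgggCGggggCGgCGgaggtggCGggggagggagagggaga
*Ezh2*, chr6:47595031-47595280, minus strand: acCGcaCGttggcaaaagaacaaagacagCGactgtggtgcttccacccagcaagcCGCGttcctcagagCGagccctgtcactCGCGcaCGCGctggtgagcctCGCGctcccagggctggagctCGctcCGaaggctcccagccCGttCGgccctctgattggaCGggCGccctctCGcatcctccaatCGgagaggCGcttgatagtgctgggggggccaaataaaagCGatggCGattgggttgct
*Kmt2c*, chr5:25498784-25499033, minus strand: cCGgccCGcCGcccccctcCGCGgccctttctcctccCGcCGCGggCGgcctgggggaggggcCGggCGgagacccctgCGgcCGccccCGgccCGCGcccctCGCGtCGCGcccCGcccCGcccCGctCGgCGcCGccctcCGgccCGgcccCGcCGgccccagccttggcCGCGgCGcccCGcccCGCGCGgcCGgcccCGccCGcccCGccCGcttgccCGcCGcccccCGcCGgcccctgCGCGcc
The window of *Ubd* held no CpG and that of *Avil* 1, whereas *Ets2*, which also rose, had 25. The windows of *Nab1*, *Ezh2* and *Kmt2c*, which fell, had 40, 23 and 48. Other genes went the other way, with 44 for *Camk2b* and 26 for *Pacsin1*, which rose, and 9 for *Tnrc6a*, which fell. The search was for the letters CG, which read the same on both strands, and 98.3% of the 7834 windows of tested genes held at least 1, with a median of 15, beside 91.7% and a median of 6 over all 27025 windows of the RefSeq table. A window was matched for 81 of the 102 genes that rose and for 95 of the 122 that fell among those named by accession. This is under 80% of each set, so a comparison of CpG content between the sets would be void and is not given.

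The genomic span of the gene could be read for every called gene matched to RefSeq by accession. Genes that rose were short, with a median of 14.5 kb over 102 genes, and genes that fell were long, with a median of 33.9 kb over 122 genes, beside 21.1 kb over the 9731 tested genes with a match. Spans over 100 kb were held by 2 of the genes that rose, 24 of those that fell (19.7%) and 10.6% of those tested. Long genes that fell included *Gnaq* (256 kb), *Kmt2c* (227 kb), *Alcam* (204 kb), *Nipbl* (175 kb), *Tnrc6a* (164 kb), *Akap9* (152 kb) and *Rev3l* (144 kb). The median of the genes that fell moved with the processing and the arrays. It was 22.6 kb with no background correction, close to that of the tested genes, 26.5 kb without array 26, 27.4 kb without array 28, 28.1 kb without array 30 and 57.1 kb without array 23. That of the genes that rose stayed between 13.2 and 16.6 kb in all settings run. The genes that fell also had a higher median WT level, 8.20 against 6.90 for those tested and 6.50 for those that rose. The WT level is itself part of the change by which genes were called. A high WT level favours a call as lower and a low WT level a call as higher. The order of these medians is thus partly set by the selection and cannot show a brightness of the genes apart from it. The spans and levels are descriptions with no test, and the part of brightness in the difference of span was not tested.

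**Figure D2:**
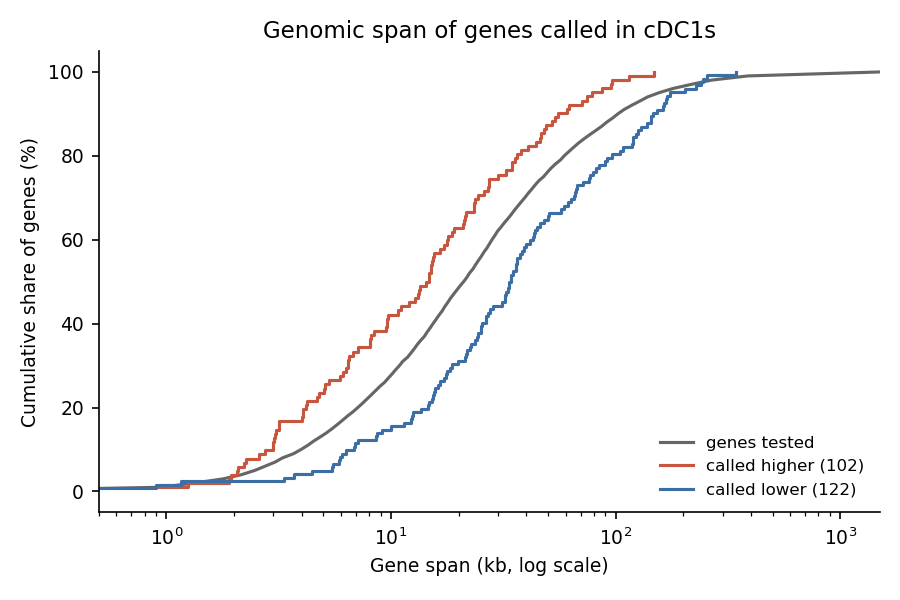
Cumulative share of genes (vertical axis, %) by genomic span in RefSeq (horizontal axis, kb on a log scale) for the 9731 tested genes with an accession match in grey, the 102 called higher in red and the 122 called lower in blue. The red curve lies to the left, at shorter spans, and the blue curve to the right, with medians of 14.5, 21.1 and 33.9 kb for the genes called higher, all tested and called lower.

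Of the 35 tested members of a list of Polycomb, histone and chromatin regulators, 7 were called lower and none higher, and 13 passed the adjusted p downward against 1 upward. Of all genes tested, 1.40% were called lower and 1.01% higher, and 3.98% passed the adjusted p downward and 4.38% upward. The 7 called lower were *Kmt2c*, *Ezh2*, *Ep300*, *Nipbl*, *Chd1*, *Kdm6a* and *Kmt2a*. The median change over the list was -0.51, beside 0.05 over all 12532 genes with a current name. *Nipbl*, which loads cohesin, was at 8.82 and 8.84 in WT and 7.67, 6.88 and 6.38 in *Mbd2*-/- cDC1s by its brightest probe. *Kdm6a*, a demethylase of H3 lysine 27, was at 8.06 and 8.74 against 7.84, 6.88 and 6.76. *Pbrm1*, a subunit of the PBAF remodeller, stayed under the fold limit at 9.35 and 9.38 against 8.52, 8.42 and 8.55, a difference of -0.87 ± 0.17 that held in every leave-one-out fit. *Kdm4a* alone passed the adjusted p upward by 1 probe (0.60 ± 0.18), while its other probe was at -0.73 ± 0.41. For *Chd1* only 1 of 4 probes was called. The list had 12 called lower and none higher with median scaling, where 508 of all genes tested were called lower and 8 higher. It had 3 and none with no background correction (48 and 30 of all genes), and 3 and none with array weights (15 and 15). With an offset of 50 it had 4 and none (84 and 48 of all genes). None of the list was called when the 5 arrays were normalized and fitted alone, where its median was -0.44.

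The list of NuRD and DNA methylation genes, to which Mbd2 belongs, had 20 tested members, with a median of -0.13. Of these 2 were called lower and none higher, beside 1.40% and 1.01% of all genes tested. *Tet2*, a dioxygenase that starts DNA demethylation, was at 8.15 and 8.57 in WT and 6.84, 7.81 and 7.39 in *Mbd2*-/- cDC1s, a difference of -1.02 ± 0.27 (adjusted p = 0.0249). It passed the adjusted p in only 1 of the 5 leave-one-out fits. The called *Uhrf2* probe was detected on no *Mbd2*-/- array, so that the WT mean was at least 2.51-fold brighter. The WT arrays were far apart, at 6.832 on array 23 and 5.145 on array 26. The brightest of the 4 *Uhrf2* probes did not differ, at 8.98 and 9.22 against 9.12, 9.23 and 8.71.

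Of 30 tested splicing kinases and SR-related proteins, 2 were called lower and none higher, beside 1.40% and 1.01% of all genes tested. Past the adjusted p were 7 downward and none upward, beside 3.98% and 4.38% of all, and the median was -0.25. *Clk1*, a kinase of SR splicing factors, was at 8.93 and 9.09 in WT and 7.90, 8.11 and 7.87 in *Mbd2*-/- cDC1s, a difference of -1.05 ± 0.21 (adjusted p = 0.00596). *Clk4* fell by 0.77 (SE 0.17), under the fold limit. The second gene called, *Luc7l3*, had 2 brighter probes that did not pass, at -0.13 ± 0.15 and -0.11 ± 0.16. With no background correction, an offset of 50 or cyclic loess 1 of the list was called lower, beside 48, 84 and 136 of all genes. With array weights none of the list was called, beside 15 of all genes called lower.

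Mitochondrial genes passed the adjusted p upward almost entirely under the fold limit. Of 71 tested mitochondrial ribosomal proteins, 59 were above 0 by their brightest probe, beside 6906 of all 12532 genes. Past the adjusted p were 16 of the 71 upward and none downward, beside 4.38% and 3.98% of all genes tested. The median was 0.31. *Mrpl38* was at 9.17 and 9.19 in WT and 9.86, 9.72 and 9.87 in *Mbd2*-/- cDC1s (0.64 ± 0.17). The 1 call, of *Mrpl18*, came from a dim probe, while its bright probe lay at -0.25 ± 0.45. For the respiratory chain 7 of 69 tested genes passed upward and none downward, with *Ndufb9* at 0.82 ± 0.20 and *Ndufs7* at 0.64 ± 0.14. With median scaling both medians turned below 0, to -0.22 and -0.21, and none of these genes passed upward, although both lists stayed above the median of all genes, which was then -0.36. Without array 23 none of the 2 lists' genes passed the adjusted p. Cytoplasmic ribosomal proteins had a median of 0.05, that of all genes, with 1 of 60 past the adjusted p. This too turned on the scaling: relative to all genes their median was 0.36 with median scaling, where the mitochondrial lists were at 0.14 and 0.15, and 0.40 with cyclic loess, where those were at 0.26 and 0.21 and 7 cytoplasmic ribosomal proteins passed.

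**Figure D3:**
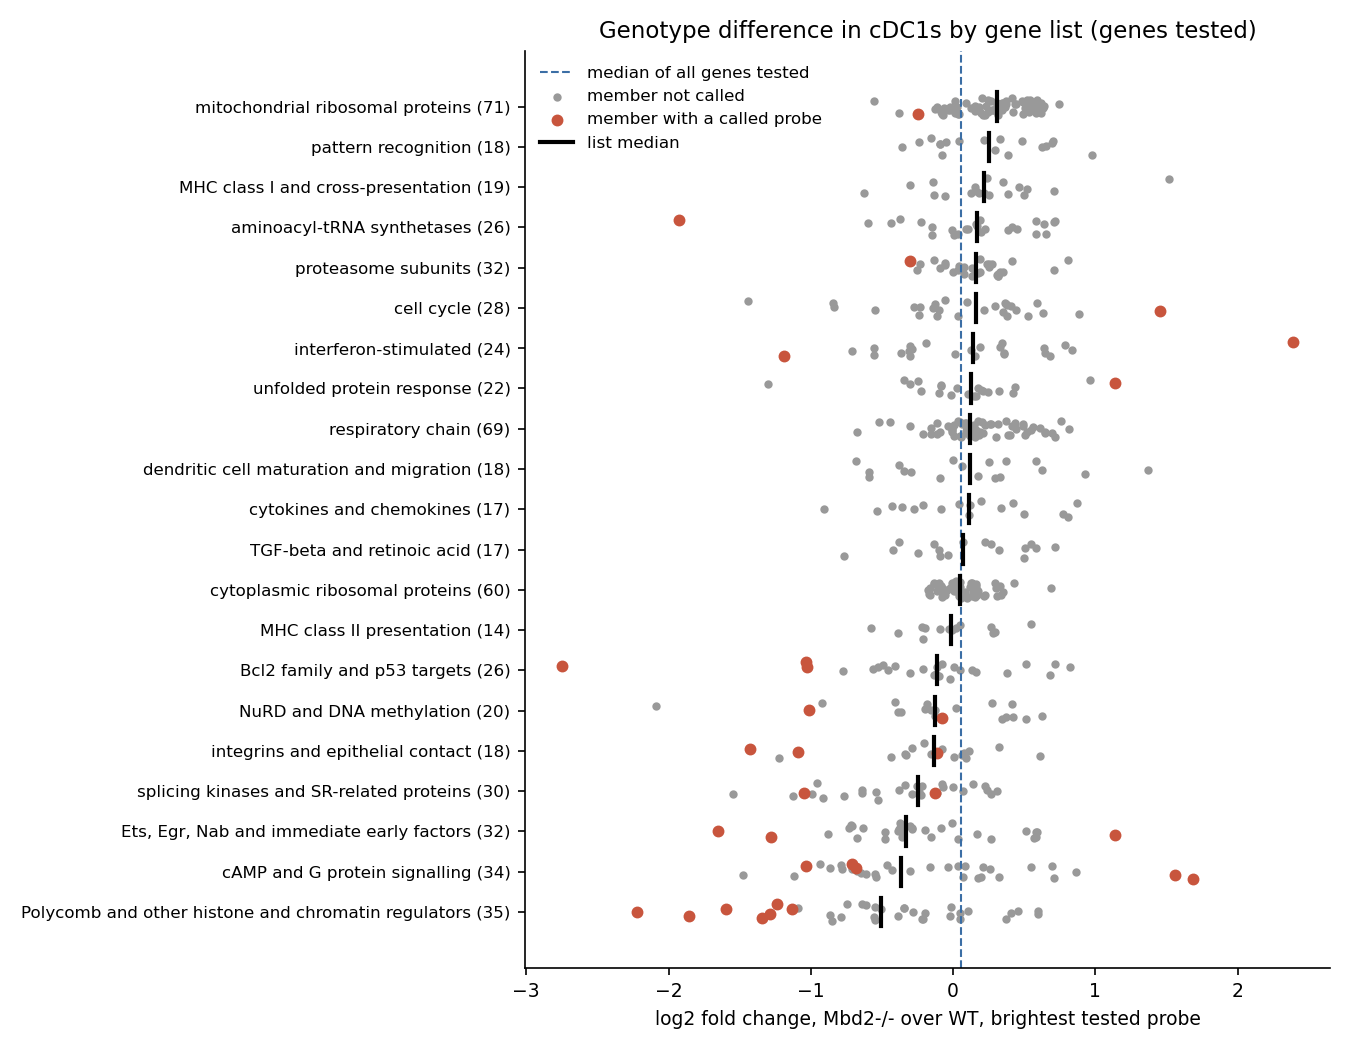
log2 fold change of *Mbd2*-/- over WT cDC1s (horizontal axis) for each tested member of 21 gene lists, taken from its brightest tested probe, with members that have any called probe in red, the list median as a black bar and the median of all tested genes, 0.05, as a dashed line. Chromatin regulators have the lowest median, -0.51, with 7 of 35 members called, and mitochondrial ribosomal proteins the highest, 0.31.

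*Ets2*, an Ets family transcription factor, had the smallest adjusted p of all genes that rose. It was at 10.04 and 10.37 in WT and 11.37, 11.25 and 11.42 in *Mbd2*-/- cDC1s, a difference of 1.14 ± 0.11 (adjusted p = 6.21e-06), and stayed between 0.98 and 1.30 as arrays were left out. With median scaling it was 0.66 and missed the adjusted p (0.176). *Nab1*, a co-repressor of Egr factors, had 5 tested probes. The called one was at 9.14 and 8.29 in WT and 7.07, 7.04 and 7.06 in *Mbd2*-/- cDC1s (-1.66 ± 0.19). The other 4 lay between -1.13 and -0.02 and did not pass the adjusted p, and 1 of these, like the called probe, did not overlap between genotypes. Of the 32 tested Ets, Egr, Nab and immediate early factors, 1 was called higher and 2 lower, and 6 passed the adjusted p downward. Over all genes tested these shares were 1.01%, 1.40% and 3.98%. *Nr4a2*, a nuclear receptor of the early response, was at 9.58 and 8.98 against 8.33, 7.76 and 7.93 and was called lower. *Elf1* (-0.88 ± 0.17), *Egr2* (-0.71 ± 0.20) and *Junb* (-0.64 ± 0.17) passed the adjusted p under the fold limit.

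*Itgae* had 6 tested probes that did not move together. The 3 probes designed on one listed transcript were bright and alike in both genotypes, and the brightest of them was at 13.09 and 13.21 in WT and 13.20, 12.93 and 12.97 in *Mbd2*-/- cDC1s (-0.12 ± 0.39, adjusted p = 0.89). Of the 3 designed on the other listed transcript, whose accession is not among those of the gene in the RefSeq table, 2 were called lower. One was at 11.73 and 10.34 in WT and 10.12, 8.74 and 8.97 in *Mbd2*-/- cDC1s (-1.76 ± 0.38, adjusted p = 0.01), and the other at 11.81 and 10.61 against 10.63, 9.24 and 9.39 (-1.46 ± 0.42), where array 27 reached array 26. The sixth probe, dim and on the same transcript, was at 0.39 ± 0.15. The fall was therefore seen by 2 of 6 probes, both on 1 listed transcript, and CD103 protein itself was in the sort gate. *Ly75*, the uptake receptor DEC205, was the other of the 18 tested cDC1 markers to be called, at 6.40 and 5.37 in WT and 5.28, 4.39 and 4.68 in *Mbd2*-/- cDC1s. Past the adjusted p were 3 of the 18 downward and none upward, beside 3.98% and 4.38% of all genes tested. *Clec9a*, *Xcr1*, *Batf3* and *Irf8* did not pass the test. The list median was 0.10, and members ran from -2.36 to 0.61 by their brightest probes.

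In cAMP and G protein signalling, 34 genes were tested, 2 were called higher and 3 lower, and the median was -0.37. Over all genes tested 1.01% were called higher and 1.40% lower. *Adcy4*, an adenylate cyclase, had 2 of 3 probes called. The stronger was at 5.63 and 6.14 in WT and 7.79, 8.10 and 7.74 in *Mbd2*-/- cDC1s (1.99 ± 0.37, adjusted p = 0.00414), and the brighter at 7.46 and 7.56 against 9.06, 9.39 and 8.75. The third probe was detected on no WT array and was at least 1.34-fold brighter in *Mbd2*-/- cDC1s, with an adjusted p of 0.378. *Gipc1*, a PDZ protein that binds receptors and a G protein regulator, had 1 of 4 probes called, at 7.45 and 7.56 in WT and 9.06, 8.98 and 9.53 in *Mbd2*-/- cDC1s (1.69 ± 0.39). A second probe was higher on every *Mbd2*-/- array and missed the adjusted p (0.76 ± 0.24, adjusted p = 0.0617), and the other 2 were at -0.23 and -0.16. The genes called lower were *Gnaq*, a G protein alpha subunit, *Rgs1*, which speeds the shutting off of G proteins, and *Akap9*, an anchor of protein kinase A. *Rgs2* was at 6.78 and 6.83 in WT and 5.88, 5.86 and 5.87 in *Mbd2*-/- cDC1s, and its fall of 0.94 on the log2 scale (SE 0.21, adjusted p = 0.0106) stayed under the fold limit.

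**Figure D4:**
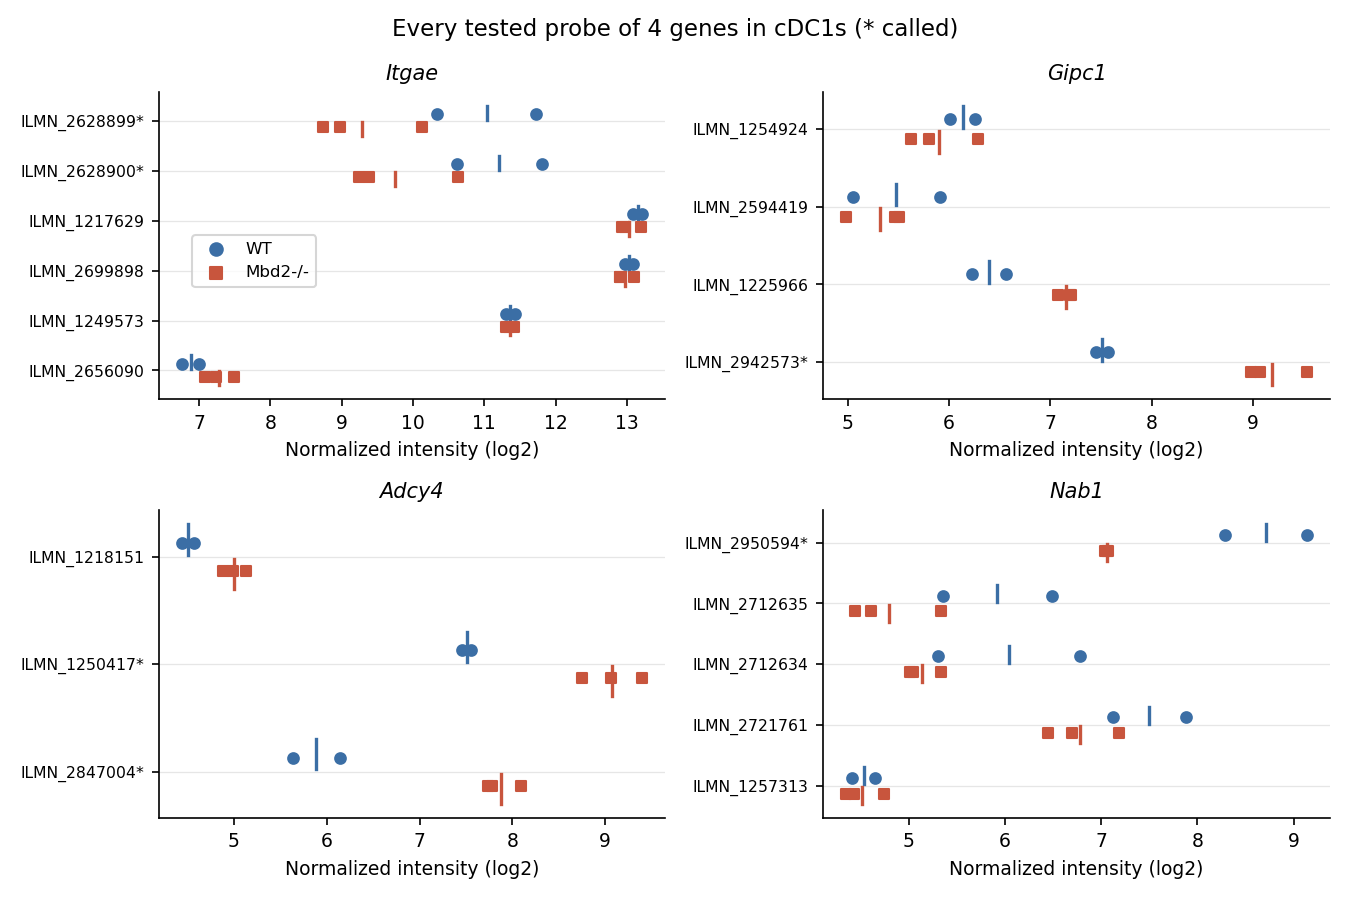
Normalized intensity (log2, horizontal axis) of every tested probe of *Itgae*, *Gipc1*, *Adcy4* and *Nab1* in the 2 WT (circles) and 3 *Mbd2*-/- (squares) cDC1 arrays, with ticks at the group means and called probes marked by an asterisk. For *Itgae* the 2 called probes have genotype means apart by -1.76 and -1.46, while the 3 brightest probes without an asterisk overlap.

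Of the remaining lists, p53 targets and the Bcl2 family had 3 of 26 genes called lower and none higher. Beside the counts of these lists, 1.40% of all genes tested were called lower and 1.01% higher. Past the adjusted p were 3.98% downward and 4.38% upward. *Mdm2*, the ubiquitin ligase of p53, was at 9.36 and 9.66 in WT and 8.49, 8.52 and 8.42 in *Mbd2*-/- cDC1s (-1.03 ± 0.14, adjusted p = 0.000307), though its other probe, at -0.33 ± 0.21, did not pass. *Pmaip1*, the BH3-only protein Noxa had 2 probes called, the brighter at 9.75 and 6.78 in WT and 6.62, 4.98 and 4.94 in *Mbd2*-/- cDC1s. WT array 23 stood far above the other WT array, and the change was -1.27 without it. *Sesn3*, a sestrin, was the third. No gene was called among 14 of MHC class II presentation, 19 of MHC class I and cross-presentation, 17 cytokines and chemokines, 18 of dendritic cell maturation and migration, 18 of pattern recognition and 17 of TGF-beta and retinoic acid. The migration gene *Fscn1* illustrates the spread, at 7.34 and 9.76 in WT and 9.67, 8.93 and 11.17 in *Mbd2*-/- cDC1s. In pattern recognition 3 genes passed the adjusted p upward, and *Nod1*, a sensor of peptidoglycan, was at 6.70 and 6.74 against 7.76, 7.70 and 7.62 (0.97 ± 0.22). Interferon-stimulated genes, 24 tested, had *Ubd* called higher and *Mx1* lower, with a median of 0.14. Among 26 aminoacyl-tRNA synthetases 5 passed the adjusted p upward and 2 downward, and *Eprs* was called lower (-1.93 ± 0.51). One gene each was called higher in the cell cycle list (*Rrm2*, 28 tested), the unfolded protein response (*Manf*, 22 tested) and the proteasome list (*Psmd1*, 32 tested). The *Psmd1* call came from the dimmest of 3 probes, and the other 2 were at -0.58 and -0.30. Integrins and epithelial contact genes had *Itgae*, *Alcam* and *Cldn1* called lower of 18.

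Markers of other colon cells were on every cDC1 array, and fewer such cells and less RNA per cell cannot be told apart in sorted bulk RNA. Of 22 epithelial markers 17 to 20 were detected on each array, and their summed linear intensity was 28130 and 8825 on the WT arrays and 24580, 25190 and 12750 on the *Mbd2*-/- arrays, while *Epcam* was detected on 1 of the 5. The epithelial antimicrobial lectin *Reg3b* was called higher by both probes, the brighter at 11.07 and 10.94 in WT and 12.69, 12.58 and 11.81 in *Mbd2*-/- cDC1s. That probe also rose in macrophages (1.26 ± 0.27, limma adjusted p = 0.0157) and monocytes (1.36 ± 0.27, adjusted p = 0.0108), so its rise was not particular to cDC1s. The gut hormones *Gcg* and *Pyy* were called lower, and both were highest on array 23, at 8.40 and 8.79. Stromal and endothelial markers summed to 7296 and 3757 against 1992, 6193 and 1552, and T, NK and innate lymphoid markers to 7022 and 3900 against 4645, 6569 and 3137. Array 23 was the highest of the 5 in all 3 sums. Every lymphoid sum lay above the 1189 to 2555 of the macrophage and monocyte arrays. *Nkg7*, *Klrd1* and *Cd8b1* were brighter on all 5 cDC1 arrays than on any of those. *Cd3g* was at 10.23 and 7.65 in WT and 8.32, 9.08 and 6.68 in *Mbd2*-/- cDC1s, and between 5.51 and 6.78 on those arrays. The part of lymphoid cells in the differences between genotypes was not tested. The lymphoid receptor *Klrk1* was called lower by 2 of its 4 probes, and of the stromal and endothelial list *Pecam1* was called higher by its dimmer probe.

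Markers of granulocytes and macrophages were also read on these arrays. The summed intensity of 12 neutrophil and eosinophil markers was 583.7 and 702.7 in WT and 2927, 1261 and 1150 in *Mbd2*-/- cDC1s. Of the 7 tested, *Ltf* and *Prg2* were called higher and none lower, beside 1.01% and 1.40% of all genes tested. By their brightest probes 6 of the 7 were above 0, with a median of 1.095, beside 0.05 over all genes. *Siglecf*, *Epx*, *Ngp* and *Cxcr2* were detected on none of the 5 arrays. *Prg2* also rose in macrophages (0.92 ± 0.22, limma adjusted p = 0.0252), while its 0.55 ± 0.22 in monocytes did not pass (adjusted p = 0.296). *S100a8* was at 8.21 and 8.54 in WT and 10.76, 9.31 and 9.10 in *Mbd2*-/- cDC1s, but did not pass the test (adjusted p = 0.145). The 15 macrophage and monocyte markers summed to 8305 and 8541 against 9760, 8588 and 14010, below the 49920 to 79300 of the macrophage and monocyte arrays. None was called, and *C1qb* passed the adjusted p under the fold limit at 8.73 and 8.92 against 9.72, 9.16 and 10.37 (0.93 ± 0.22). *Clec10a*, a lectin of cDC2s and macrophages, was called higher at 7.26 and 7.84 against 8.76, 8.03 and 9.45, and *Sirpa* passed the adjusted p just under the fold limit (1.00 ± 0.20). Array 28 was the lowest and array 30 the highest of the *Mbd2*-/- arrays in the macrophage sum, in *Clec10a* and in *C1qb*. The part of these cells in the differences between genotypes was not tested. B and plasma cell markers had no call among 9 tested.

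The difference between genotypes was set against that in macrophages and monocytes of DSS-treated colons by testing the difference of the 2 changes for each probe. It passed in 875 genes against macrophages, 6.70% of those tested, and in 113 against monocytes, 0.866%. These counts fell to 99 and 30 without array 23 and rose to 1562 and 745 without array 26. Of the 141 probes called higher in cDC1s, 72 (51.1%) were above 0 in macrophages and 103 (73%) in monocytes, beside 41.4% and 47.1% of all tested probes. Of the 204 called lower, 68 (33.3%) were below 0 in macrophages and 116 (56.9%) in monocytes, beside 58.4% and 52.7% of all.

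*Ubd* rose in all 3 cell types, by 2.39 ± 0.36 in cDC1s, 1.98 ± 0.25 in macrophages and 1.67 ± 0.25 in monocytes, and the test of the differences gave adjusted p-values of 0.574 and 0.377. *Adcy4*, by its brighter called probe, changed by 1.56 ± 0.31, 0.93 ± 0.22 and 1.24 ± 0.22, all past the adjusted p. *Alcam* fell in cDC1s and in macrophages (-1.09 ± 0.15) and was at -0.18 ± 0.15 in monocytes, where the difference from cDC1s passed (adjusted p = 0.0257). *Ets2* differed from both, with 0.00 ± 0.08 in macrophages and -0.18 ± 0.08 in monocytes. Its group means in those cells lay between 12.74 and 12.92. *Kmt2c* was at -0.01 ± 0.11 and -0.26 ± 0.11, and *Ezh2* at 0.44 ± 0.24 and 0.02 ± 0.24, and both differed from cDC1s in each test. *Cox6a2*, *Avil* and *Mdm2* also differed from both cell types. Among other genes, *Cysltr1*, *Hhex*, *Zfp318* and *Zmym5* were below 0 in all 3, but neither macrophages nor monocytes passed on their own. The fall of *Zmym5* in cDC1s differed from that in macrophages by -1.03 (limma adjusted p = 0.0216). For *Hhex* (-0.87, adjusted p = 0.0429) and *Zfp318* (-0.86, adjusted p = 0.0495) this difference stayed under the fold limit.

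**Figure D5:**
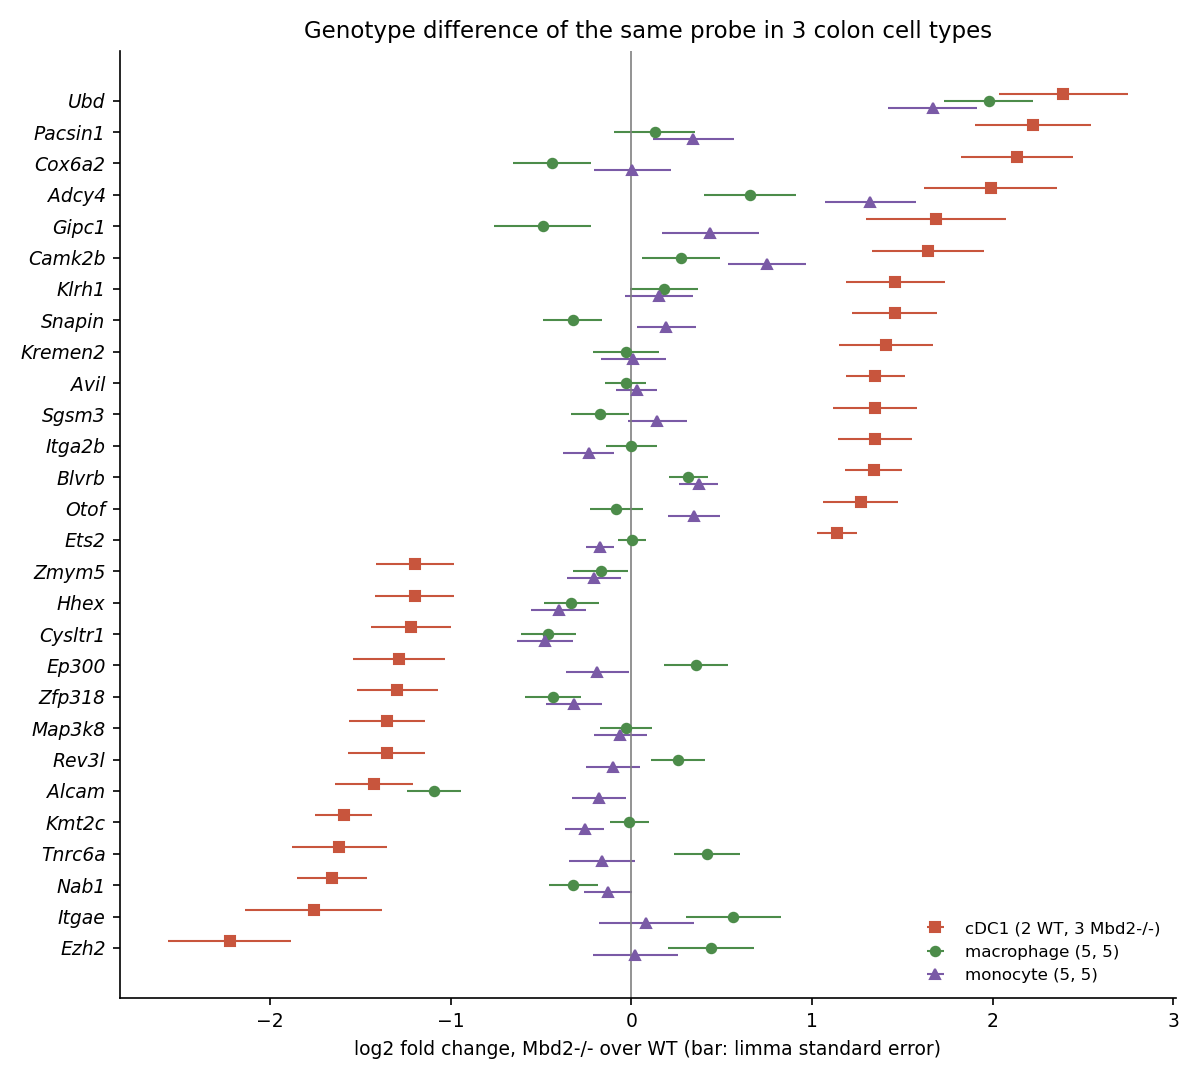
log2 fold change of *Mbd2*-/- over WT (horizontal axis, bars are limma standard errors) for the same probe in cDC1s (squares, 2 WT and 3 *Mbd2*-/- arrays), macrophages (circles, 5 and 5) and monocytes (triangles, 5 and 5), for the same 24 genes with a RefSeq match and *Ets2*, *Adcy4*, *Gipc1* and *Itgae*. Only *Ubd* of the genes shown lies above 1.5 in all 3 cell types, and the macrophage and monocyte values of most genes lie near 0.

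The bead level data behind the 70 named probes rested on 19 to 61 beads per probe and array, with a median of 36. The standard error over beads was between 1.51% and 13.7% of the raw intensity, with a median of 3.39%. This error is that of 1 hybridization and does not hold the spread between mice.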

How the data were processed

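RNA of the sorted cells was hybridized to Illumina MouseWG-6 BeadChips. The authors deposited intensities as mean bead brightness per probe, with no normalization or background subtraction, and a detection p-value per probe and array computed against the negative control probes of that array. The submitters' processing notes name lumi and limma, the normalization is not given in the sources used here, and the record and the methods differ in the RNA kit and integrity limit they name. A further 3 per-array signal columns belonging to no sample were not used. Groups came from the labels. The methods call the arrays biological replicates from 3 experiments. No label ties an array to an experiment, so experiment could not enter the model. SEs and p-values rest on a spread pooled over the 6 groups of cell type and genotype. This left 19 residual degrees of freedom, against 3 for the cDC1 arrays fitted alone. They thus mostly measure the spread of macrophage and monocyte arrays, and the small number of cDC1 arrays limits the precision. For *Ezh2* the WT arrays had an SD of 1.057 and the SE was 0.34. For the brightest *Itgae* probe the SDs were 0.086 and 0.144 and the SE was 0.39. Array weights were 0.473 to 0.693 on the cDC1 arrays and 0.314 to 1.956 on the others. Members and gene lists were chosen with earlier results of these data known.

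The 25 colon arrays were corrected with normexp (offset 16, background from the detection p-values), quantile normalized and taken to log2 in limma 3.58.1 (R 4.3.3). One model over 6 groups of cell type and genotype was fitted to the 17838 tested probes, with two-sided empirical Bayes tests and Benjamini-Hochberg adjustment within a comparison, and was tested on simulated data. A gene was called where any probe had an adjusted p under 0.05 and a log2 change of at least 1. A fold against a group with no detected array is a lower bound from the dimmest detected signal. For probes with an accession, 27655 of 36692 matched RefSeq (GRCm38.p6), which gave names and spans. Named were *Ets2*, *Gipc1*, *Adcy4*, *Nab1*, *Itgae* and *Mbd2*, up to 12 called genes per direction that matched RefSeq by accession, did not overlap and passed every leave-one-out fit, called list members, and members that describe a list. WT arrays lay in the table's column blocks beside monocytes and *Mbd2*-/- arrays beside macrophages or in the last block, so column block and genotype cannot be told apart. Alternatives were other background corrections, scalings, filters, thresholds and array weights, the column block as a random effect, and leaving out each array. The negative control probes as background were added after seeing the data.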

Additional observations from a re-analysis of the deposited data

Results flagged for a closer look

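For 40 of the 70 named probes, the genotype difference in cDC1s was not that in macrophages at an adjusted p under 0.05 and a difference of at least 1, by limma's test of the difference itself. Values are the log2 change in cDC1s less that in macrophages. It was above 0 for *Cox6a2* (2.57), *Gipc1* by its called probe (2.18), *Pacsin1* (2.09), *Rrm2* (2.05), *Snapin* (1.78), *Sgsm3* (1.52), *Kremen2* (1.44) and *Avil* (1.38). The same held for *Camk2b* (1.37), *Itga2b* (1.35), *Otof* (1.35), *Klrh1* (1.28), *Ets2* (1.14), *Gipc1* by a second probe that was not called (1.07), *Blvrb* (1.03) and *Pecam1* (1.02). The difference was below 0 for *Pmaip1* (-3.59), *Ezh2* (-2.66), *Eprs* (-2.56), *Itgae* (-2.32), *Uhrf2* (-2.18), *Klrk1* (-2.11), *Tnrc6a* (-2.03), *Itgae* by a second probe (-1.86), *Ep300* (-1.64), *Nr4a2* (-1.63), *Rev3l* (-1.61), *Kmt2c* (-1.58), *Luc7l3* (-1.46), *Nipbl* (-1.42), *Gnaq* (-1.35), *Nab1* (-1.33), *Map3k8* (-1.32), *Rgs1* (-1.31), *Sesn3* (-1.31), *Mx1* (-1.27), *Mdm2* (-1.11), *Cldn1* (-1.1), *Ly75* (-1.03) and *Zmym5* (-1.03). The adjusted p-values of *Ets2* and *Kmt2c* were both 0.000241.

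Against monocytes 20 of the 70 differed by the same test. The change in cDC1s less that in monocytes was above 0 for *Cox6a2* (2.13), *Pacsin1* (1.88), *Clec10a* (1.6), *Itga2b* (1.58), *Kremen2* (1.4), *Avil* (1.32), *Ets2* (1.31), *Snapin* (1.26) and *Sgsm3* (1.2). It was below 0 for *Ezh2* (-2.24), *Klrk1* (-1.94), *Nab1* (-1.53), *Tnrc6a* (-1.46), *Mx1* (-1.43), *Kmt2c* (-1.33), *Map3k8* (-1.29), *Alcam* (-1.25), *Rev3l* (-1.25), *Ly75* (-1.12) and *Mdm2* (-1.12). The adjusted p was 3.02e-05 for *Ets2* and 0.00152 for *Kmt2c*. All these probes were named for their change in cDC1s or by the study, so the number that differed is a description, beside 6.70% and 0.866% of all genes tested.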

How the results depend on the processing

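The counts of genes called higher, called lower, differing from macrophages and differing from monocytes were 132, 183, 875 and 113. In that order they were 30, 48, 305 and 38 with no background correction, 48, 84, 458 and 70 with an offset of 50, 8, 508, 962 and 6 with median scaling, and 59, 136, 556 and 75 with cyclic loess. They were 87, 130, 438 and 63 with no filter on dim probes, 130, 186, 922 and 149 with a stricter one, and 15, 15, 18 and 9 with array weights. At an adjusted p under 0.01 they were 45, 55, 133 and 25, without the fold limit 572, 520, 1569 and 198, and with the unadjusted p and the fold limit 185, 433, 1443 and 737. With the cDC1 arrays alone, whether also normalized alone or not, 0 were called higher and 0 lower, while 419 and 531 genes had an unadjusted p under 0.05 and the fold. Leaving out 1 array gave 36 to 398 higher, 99 to 490 lower, 99 to 1562 against macrophages and 30 to 745 against monocytes, the extremes being without WT array 23 or 26, except for 99 lower without *Mbd2*-/- array 30. Where 1 WT array remained, it was assumed to vary like the other groups. The cause of these shifts was not tested.

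Of the 70 named probes none of those called changed direction with its call. The other 12, probes of *Adcy4*, *Gipc1*, *Itgae* and *Nab1*, had no call to lose, which leaves 58 called probes. The fits to the cDC1 arrays alone took all 58 below the threshold, and array weights took 43. Leaving out WT array 23 also took a part of the 58. The uncorrected intensities took 40, the larger offset 29, scaling to the median 24 and cyclic loess 13. The column block as a random effect (correlation 0.041) and the negative control background took none. No block held more than 1 cDC1 array, so the block setting could not separate block from genotype and is no check of it. No paired analysis was possible because the array numbers of the genotypes are all different.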
